A study of Mus musculus with 9 samples.

Results

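Histone messenger RNAs were followed in MA-10 cells, a steroid-making line derived from a Leydig tumour of the mouse testis, on 9 Affymetrix whole-transcript arrays. The 3 groups of 3 arrays were DMSO controls, cells given 10 µM forskolin, and cells given 10 µM forskolin together with 1 mM AICAR, each for 1.5 h in serum-free medium after growth in horse serum. Forskolin switches on adenylyl cyclase, and AICAR enters cells and becomes an AMP mimic that activates the kinase AMPK. No group received AICAR alone, all cells were of 1 line, and the control titles read "no treatment" although the treatment recorded for them is DMSO. The labels number the replicates without saying that they were separate cultures, so p-values measure the spread between these samples, which may be technical.

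The genes described were all those measured by a probe set of their own whose symbol, or older symbol, begins with Hist1h, Hist2h, Hist3h, Hist4h, H2af, H3f3 or H1f. They number 44 of the 19938 genes on the arrays. Of these, 31 are clustered, replication-dependent genes, comprising 5 for linker histone H1, 5 for H2A, 11 for H2B, 3 for H3 and 7 for H4. The other 13 are variants, comprising 3 of H1, 9 of H2A and 1 of H3. The 44 include 7 genes known from germ cells and 2 genes that RefSeq lists as pseudogenes, H2bu1-ps and Macroh2a3, which leaves 27 somatic clustered genes. A further 39 genes with a matching name were read only by probe sets shared between genes and are described last, and 9 had no probe set. Current symbols are given with the older ones in parentheses.

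Nucleosomes wrap DNA around a core of H2A, H2B, H3 and H4, and linker H1 binds where the DNA enters and leaves. The clustered genes supply these proteins while DNA is being copied; they have no introns, and their mRNAs end in a stem-loop in place of a poly(A) tail and are destroyed quickly when replication stops. Variant genes mostly lie outside these clusters, mostly make polyadenylated mRNA throughout the cell cycle, and put histones into chromatin outside replication. The 2 classes were set by symbol and not by position. H4f16 (Hist4h4), on chromosome 6 beside the variant H2aj, is therefore counted as clustered. The labelling kit named for these arrays primes RNA along its length, so that a transcript without a poly(A) tail is also read.

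The promoters of the H1 genes are shown because each of the 4 somatic clustered H1 genes with a probe set of its own was called lower when AICAR was added to forskolin. The 130 bases before the start are given, from RefSeq on GRCm38.p6, in the direction of transcription. Capitals mark the CCAAT box, which reads ATTGG on the opposite strand, the TATA box searched for as TATAAA, and the H1 box searched for as AAACACA, all on both strands. The first 4 are somatic genes and the fifth, H1f6, is the testis H1 of germ cells. Their positions are chr13:23763538-23763667 (+) for H1f1, chr13:23738677-23738806 (+) for H1f2, chr13:23554902-23555031 (+) for H1f3, chr13:21780626-21780755 (-) for H1f5 and chr13:23695681-23695810 (+) for H1f6.
H1f1: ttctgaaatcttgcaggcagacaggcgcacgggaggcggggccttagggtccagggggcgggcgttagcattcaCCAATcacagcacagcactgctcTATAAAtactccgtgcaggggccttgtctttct
H1f2: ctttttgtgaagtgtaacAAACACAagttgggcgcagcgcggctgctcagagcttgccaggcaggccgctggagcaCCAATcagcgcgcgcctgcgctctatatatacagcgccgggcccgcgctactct
H1f3: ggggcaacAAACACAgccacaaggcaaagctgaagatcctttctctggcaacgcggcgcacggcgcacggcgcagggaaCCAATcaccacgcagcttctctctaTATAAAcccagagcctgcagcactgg
H1f5: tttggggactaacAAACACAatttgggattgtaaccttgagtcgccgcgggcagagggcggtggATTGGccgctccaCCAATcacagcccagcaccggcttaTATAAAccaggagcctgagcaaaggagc
H1f6: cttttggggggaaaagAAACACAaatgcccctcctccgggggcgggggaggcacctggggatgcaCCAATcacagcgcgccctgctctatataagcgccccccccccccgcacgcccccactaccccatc

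A CCAAT box began between 51 and 65 bases before the start in all 5. The H1 box began 112 to 122 bases before the start in H1f2, H1f3, H1f5 and H1f6, and its letters were not in the H1f1 window. TATAAA began 26 to 33 bases before the start of H1f1, H1f3 and H1f5. In the RefSeq windows of 250 bases before to 50 bases after the start, which were found for 37 of the 44 genes, CCAAT was present in 29 of 37, against 37.4% of 32851 mouse promoters. TATAAA was present in 16 of 37, all of them clustered genes (16 of 26 clustered and 0 of 11 variant), against 13.6% of all promoters. The octamer ATTTGCAT, known from H2B promoters, was in 9 windows, all of clustered genes, and in 1.74% of all promoters, and the H1 box was in 9 windows and in 7.18%. The cAMP response element TGACGTCA was in 1 window, that of H4c8 (Hist1h4h), and in 1.79% of all promoters. These matches describe the letters and say nothing about binding.

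The measured Leydig markers read above the array median. The 6 measured of 8 listed Leydig markers had group means between 8.34 and 11.88 on the log2 scale, where the median over all probe sets of an array was 7.14 to 7.19. The forskolin response was present in Star, the cholesterol carrier gene, which rose 3.70-fold over control. All 7 germ-cell markers had group means from 4.12 to 7.38, all 4 macrophage markers from 4.75 to 7.85, and all 4 peritubular markers from 6.69 to 7.26. In control cells the Sertoli list ran from 6.39 for Fshr to 9.88 for Sox9, and the endothelial list from 5.18 for Tek to 11.97 for Cdh5. Cdh5 thus read above the highest Leydig marker, so single markers of other cell types were also high. When AICAR was added to forskolin, 3 of the 6 Leydig markers fell, Star (log2 difference −2.05), the steroid dehydrogenase gene Hsd3b1 (−0.59) and the electron carrier gene Fdx1 (−0.34), with a list median of −0.34. Sox9 (−0.46), 1 of 6 Sertoli markers, and Cd68 (−0.39), 1 of 4 macrophage markers, fell as well. Of all genes, 4.12% were called lower in this comparison. The summed log2 level of the Sertoli list ran from 47.2 to 47.5 on the control arrays, 46.9 to 47.1 with forskolin and 46.6 to 47.1 with AICAR, and that of the macrophage list from 23.5 to 23.8, 23.9 to 24 and 23.3 to 24. Their part in the histone results was not tested.

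Forskolin alone left the histone genes near their control level. None of the 44 passed the test of limma's linear model at an adjusted p under 0.05, which 0.692% of all genes passed in this comparison (0.497% higher and 0.196% lower). An unadjusted p under 0.05 was found for 3 of the 44, against 1450 of the 19938 genes. All forskolin arrays lay above all control arrays in 7 of the 44 and below them in 1, where 6.85% and 7.13% of all genes did so. The differences, forskolin minus control, lay between −0.13 and 0.23. Their median was 0.01 for the clustered genes, 0.01 for the variants and 0.00 for all genes. With array weights 1 variant was called.

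The smallest p of a clustered gene in that comparison belonged to H2ac1 (Hist1h2aa), a testis H2A. It read 8.39, 8.38 and 8.28 on the control arrays and 8.46, 8.46 and 8.51 with forskolin, so the groups did not overlap, with a difference of 0.12 (SE 0.04, adjusted p = 0.40 in limma). The smallest p overall belonged to H2az2 (H2afv), the second gene for the H2A.Z type of variant found at promoters. It read 11.33, 11.32 and 11.29 in control cells and 11.14, 11.19 and 11.22 with forskolin, a difference of −0.13 (SE 0.04, adjusted p = 0.28). All 3 forskolin values of H2az2 lay below all 3 controls, although the gene did not pass. Macroh2a2 (H2afy2), one of the 2 genes for the large macroH2A variant, had the largest difference, 0.23 (SE 0.08, adjusted p = 0.45), with 5.77, 5.92 and 5.69 in control cells and 6.09, 5.93 and 6.05 with forskolin, which came within 0.01 of each other.

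Adding AICAR to forskolin went with lower clustered histone mRNA. Of the 31 clustered genes 9 were lower and 0 higher at an adjusted p under 0.05, where 4.12% of all genes were called lower and 0.978% higher. The median difference was −0.19 for the clustered genes, 0.04 for the variants and 0.02 for all genes. All 31 clustered differences were below 0, against 8131 of the 19938 genes. In 22 of the 31 every array with AICAR lay below every forskolin array, which held for 12.2% of all genes, and in 0 of 31 they lay above, against 11.5%. The genes of a histone type are much alike, so their probe sets may share signal. Of the 44 histone genes, 22 are also named by shared probe sets. These counts are therefore not counts of separate measurements. In cells measured in bulk, fewer cells copying their DNA and less histone mRNA in each such cell cannot be told apart.

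**Figure D1:**
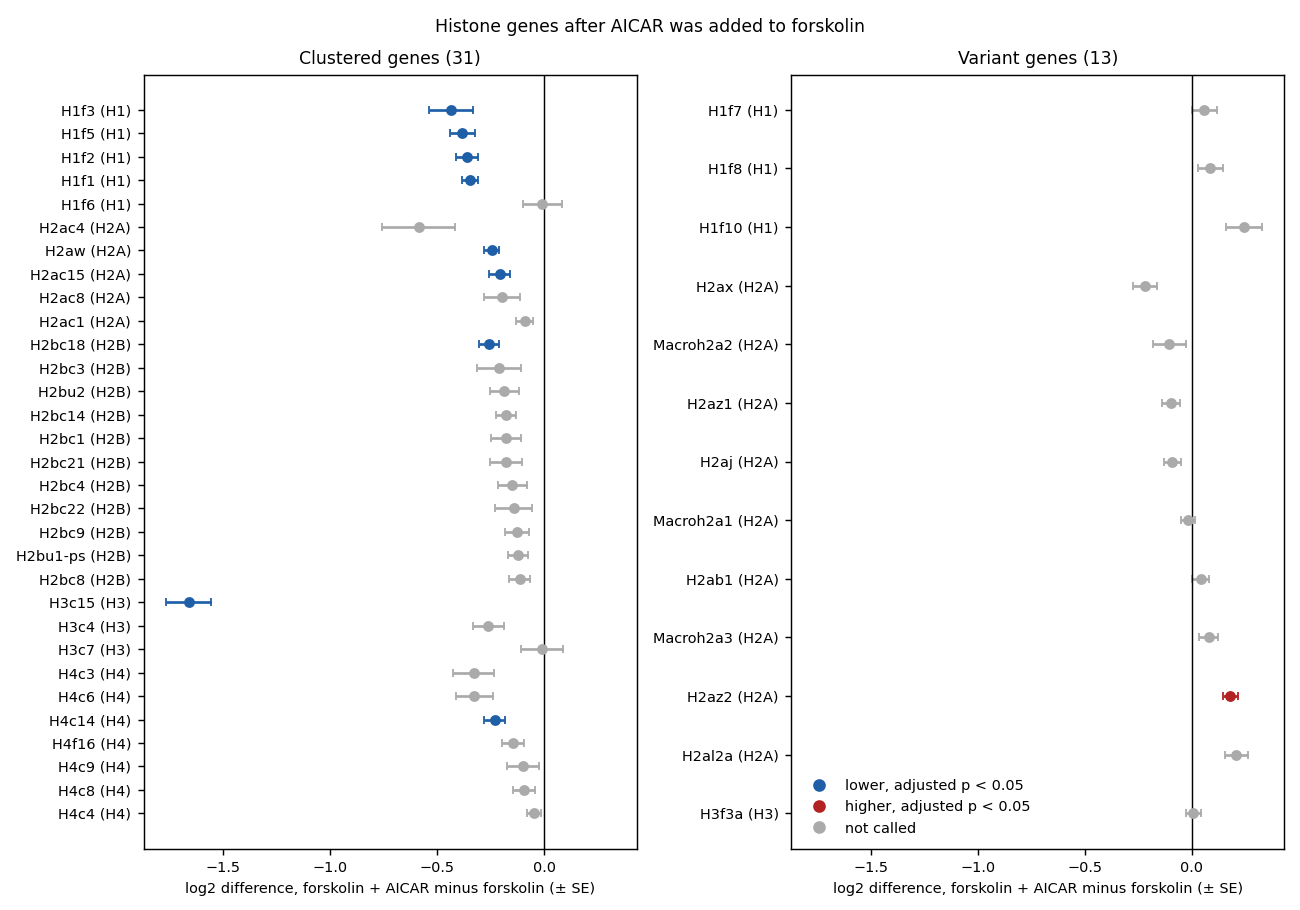
Log2 difference, forskolin with AICAR minus forskolin, of each of the 31 clustered (left) and 13 variant (right) histone genes, with bars of ± 1 SE from limma; blue is lower and red higher at an adjusted p under 0.05. All clustered points lie below 0, with H3c15 at −1.66 far from the others. The 4 somatic clustered H1 genes lie between −0.44 and −0.35, and the variants lie on both sides of 0.

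The 9 called genes were somatic clustered genes with a probe set of their own. They were all 4 such genes for H1, 2 of 4 for H2A and 1 of 9 for H2B. The others were 1 of 3 for H3 and 1 of 7 for H4. The number called depended on single arrays. In all, 10 histone genes were called with all arrays (9 clustered lower and 1 variant higher), 5 without forskolin replicate 1, 6 without forskolin replicate 3, 6 without AICAR replicate 3 and 18 without AICAR replicate 1, and of the 18, 15 were clustered genes that were lower. Calls over all genes rose in that last fit too, from 195 higher and 822 lower to 1677 higher and 1647 lower (8.26% of genes lower), while 2.79%, 2.13% and 3.18% were lower in the other 3 fits. H1f1, H1f2, H1f5, H2aw and H3c15 were called whichever of the 6 arrays of the comparison was left out.

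The H1 genes form the linker layer of chromatin. H1f5 (Hist1h1b), the H1 with the highest value on these arrays, read 11.82, 11.73 and 11.81 in control cells, 11.76, 11.75 and 11.77 with forskolin, and 11.45, 11.45 and 11.23 with AICAR added. Its control and forskolin values overlapped, and all 3 values with AICAR lay below both groups. The difference from forskolin was −0.38 (SE 0.06, 1.30-fold lower, adjusted p = 0.0059). H1f1 (Hist1h1a) read 11.39, 11.40 and 11.41 in control cells, 11.44, 11.35 and 11.39 with forskolin, and 11.10, 11.03 and 11.02 with AICAR. The gap between the groups was over 0.2, and the difference was −0.35 (SE 0.04, 1.27-fold lower, adjusted p = 0.0014).

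Part of the mRNA of H1f2 (Hist1h1c) is known to be polyadenylated in differentiated cells. Its values were 11.09, 11.21 and 11.20 in control cells, 11.15, 11.09 and 11.15 with forskolin, and 10.81, 10.67 and 10.82 with AICAR. Again only the AICAR arrays stood apart, by −0.36 from forskolin (SE 0.05, adjusted p = 0.0041). H1f3 (Hist1h1d) read lower on the arrays, with 6.98, 7.09 and 7.42 in control cells, 7.09, 6.97 and 7.08 with forskolin, and 6.73, 6.51 and 6.60 with AICAR. All 3 AICAR values were the lowest of the 9, at −0.44 from forskolin (SE 0.10, adjusted p = 0.044), but the call held in 1 of 6 fits with an array left out, that without AICAR replicate 1, and the adjusted p reached 0.16.

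H1f6 (Hist1h1t), the germ-cell H1, lies between H2bc4 and H4c3 in the same cluster on chromosome 13 and is named here after its values were seen. It read 7.73, 7.48 and 7.86 with forskolin and 7.73, 7.72 and 7.61 with AICAR. These overlapped, and the difference was −0.01 (SE 0.09, adjusted p = 0.96). Its promoter, printed above, holds the same CCAAT and H1 box letters as H1f2.

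Of the H2A genes, H2aw (Hist3h2a), which lies outside the large cluster, read 12.39, 12.40 and 12.44 in control cells, 12.45, 12.42 and 12.38 with forskolin, and 12.19, 12.16 and 12.17 with AICAR. The AICAR arrays were close together and below the rest, at −0.25 from forskolin (SE 0.04, adjusted p = 0.0043). H2ac15 (Hist1h2ak), the H2A gene with the highest value, read 12.71, 12.67 and 12.74 with forskolin and 12.59, 12.49 and 12.41 with AICAR. Its groups did not overlap either, at −0.21 (SE 0.05, adjusted p = 0.040), but the call was kept in 1 of 6 fits with an array left out, that without AICAR replicate 1, and the adjusted p reached 0.14. H2ac4 (Hist1h2ab), named after its values were seen, had the second largest difference of all members, −0.59 (SE 0.17), and did not pass (adjusted p = 0.083). Its forskolin values were 9.65, 9.65 and 9.96, and its AICAR values, 9.55, 9.16 and 8.79, lay below all of these but spread more widely.

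Among 11 H2B genes, H2bc18 (Hist2h2bb) was the one called. It read 10.97, 10.97 and 10.94 in control cells, 11.02, 10.92 and 10.97 with forskolin, and 10.73, 10.78 and 10.63 with AICAR. The AICAR arrays lay below both other groups, at −0.26 from forskolin (SE 0.05, adjusted p = 0.013), and the call was lost without forskolin replicate 1 or without forskolin replicate 3 (adjusted p up to 0.054). H2bc4 (Hist1h2bc), with the highest H2B value, read 12.44, 12.45 and 12.55 with forskolin and 12.44, 12.38 and 12.17 with AICAR. These groups met at 12.44, and the difference of −0.15 did not pass (SE 0.07, adjusted p = 0.20). The 11 H2B differences lay between −0.26 and −0.12, a narrow range beside that of the H1 and H3 genes.

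H3c15 (Hist2h3c2) had the largest difference of all members. It read 7.74, 7.94 and 8.17 in control cells, 8.02, 7.83 and 7.97 with forskolin, and 6.34, 6.36 and 6.15 with AICAR. The gap between the groups exceeded 1 log2 unit, and the level was 3.16-fold lower with AICAR than with forskolin alone (−1.66, SE 0.10, adjusted p = 7.5e-05). The probe sets of H3c15 and H3c4 were tied to their genes through a single GenBank cDNA each and not through a RefSeq transcript, and the cDNA of H3c15 is also listed for a shared H3 probe set, so the part of the H3c15 transcript that was read is not known. H3c4 (Hist1h3d), with 7.84, 7.76 and 7.77 with forskolin and 7.62, 7.51 and 7.45 with AICAR, did not overlap between the groups and did not pass (−0.26, SE 0.07, adjusted p = 0.069). The third H3 gene, H3c7 (Hist1h3f), differed by −0.01.

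H4c14 (Hist2h4) read 12.43, 12.38 and 12.38 in control cells, 12.52, 12.36 and 12.48 with forskolin, and 12.18, 12.27 and 12.21 with AICAR. The AICAR values were the 3 lowest, at −0.23 from forskolin (SE 0.05, adjusted p = 0.027), and the call was lost without forskolin replicate 1, forskolin replicate 3 or AICAR replicate 3 (adjusted p up to 0.10). H4c4 (Hist1h4d), with the highest value of all members, read 13.72, 13.72 and 13.76 with forskolin and 13.68, 13.70 and 13.67 with AICAR. The groups stood apart by 0.02, and the difference of −0.05 did not pass (SE 0.03, adjusted p = 0.36). The other 5 H4 genes differed by −0.33 to −0.10. The highest value of any probe set on any array was 14.33. The median difference of clustered genes was −0.23 for the 15 with a mean of at least 10 and −0.16 for the 16 below it. Of all genes, 16.6% had a mean of at least 10.

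**Figure D2:**
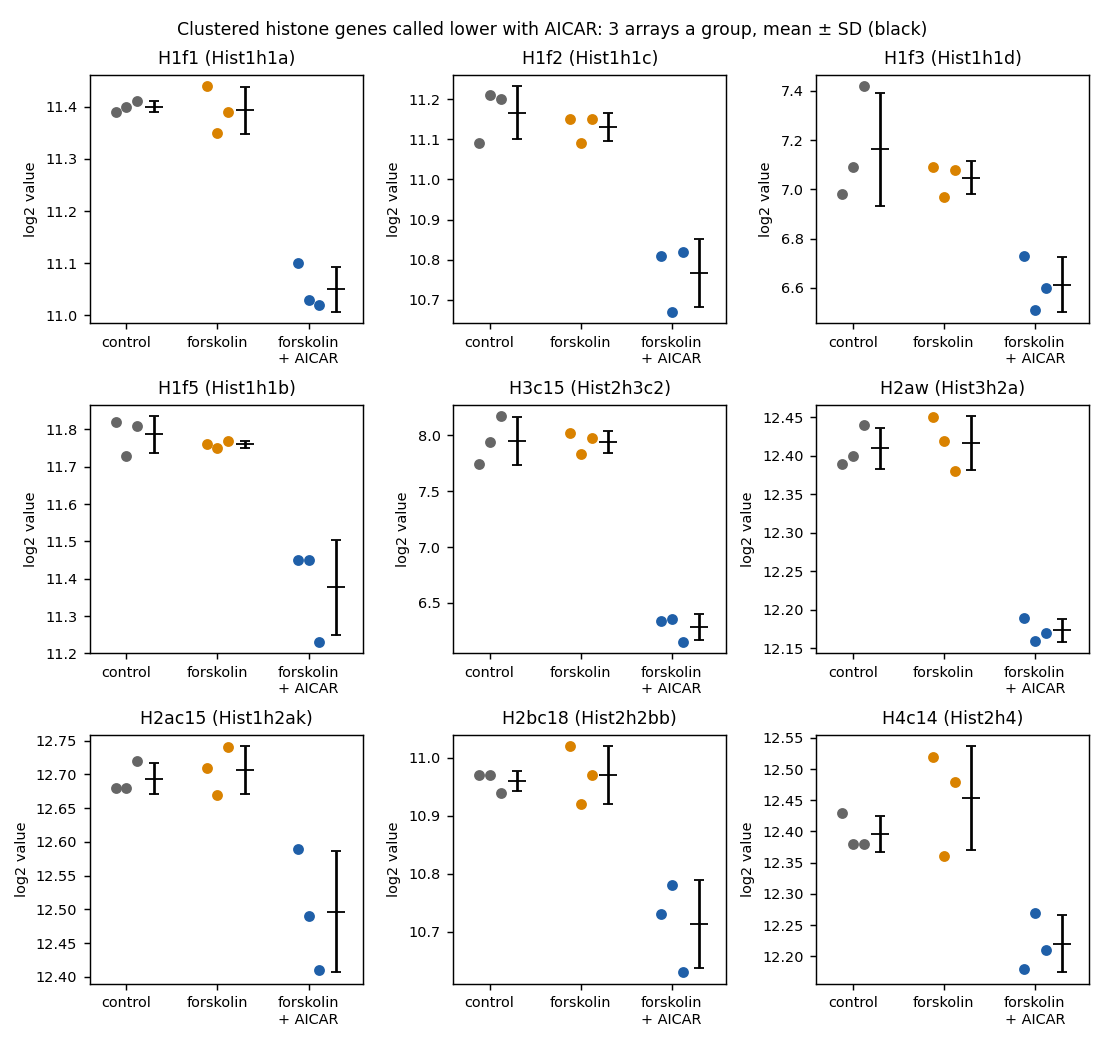
Log2 value on each of the 9 arrays for the 9 clustered genes called lower with AICAR, with the mean ± SD of each group of 3 in black; each axis covers only the range of its gene. In every panel the 3 AICAR points lie below all control and forskolin points, and H3c15 falls from about 8 to below 6.5.

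The 3 AICAR arrays did not move evenly, and differences between types in this were not tested. Set against the control mean, the median somatic clustered H1 gene was at −0.35, −0.43 and −0.47 on AICAR replicates 1, 2 and 3. The median somatic clustered H2A gene was at −0.13, −0.23 and −0.31. The median somatic H2B gene was at −0.04, −0.09 and −0.29, and the median H4 gene at −0.05, −0.07 and −0.20. Replicate 3 was the lowest in all of these. The 13 variants, here with 4 germ-cell genes and Macroh2a3 among them, were at 0.05, 0.06 and 0.02, and all genes at 0.01, 0.01 and 0.04. The 8 variants without those had a median difference of 0.01 between the AICAR group and control, against 0.05 for all 13. Without AICAR replicate 3 the clustered median moved from −0.19 to −0.12. The interquartile range over all probe sets was 3.42, 3.35 and 3.34 on AICAR replicates 1, 2 and 3. A narrower range goes with lower bright values, and its part in these medians was not tested.

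**Figure D3:**
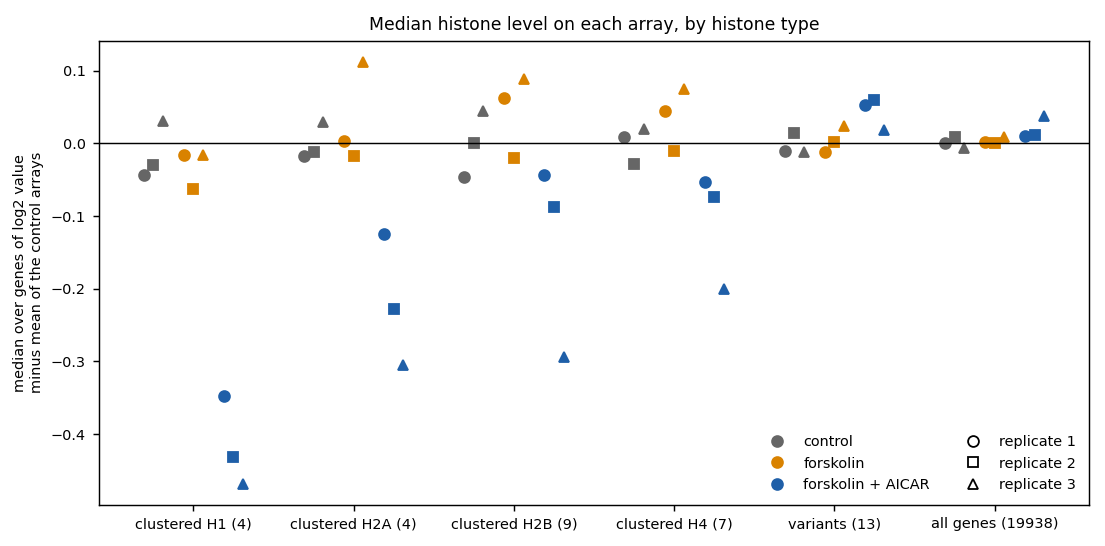
Median over genes of the log2 value minus the gene's control mean, for each array, by histone type (without germ-cell genes and pseudogenes in the clustered types) and for all 19938 genes; colour marks the group and shape the replicate. The AICAR arrays of H1 lie together between −0.47 and −0.35, whereas for H2B replicate 3, at −0.29, lies well below −0.04 and −0.09.

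Against DMSO control, the same AICAR arrays gave 8 of 31 clustered genes lower and 0 higher, where 5.68% of all genes were called lower and 3.04% higher. This comparison shares its AICAR arrays with the one above, so the counts are not independent. The differences were −1.67 for H3c15, −0.55 for H1f3, −0.41 for H1f5, −0.40 for H1f2, −0.35 for H1f1, −0.25 for H2bc18, −0.24 for H2aw and −0.19 for H2ac15, with adjusted p from 6.1e-05 for H3c15 to 0.042 for H2ac15 in limma. H4c14, at −0.17, did not pass (adjusted p = 0.059). The median was −0.15 for clustered genes, 0.05 for variants and 0.02 for all genes, and 17 of 31 clustered genes had all AICAR arrays below all control arrays, against 14.3% of all genes (0 of 31 above, against 15.2%). Without AICAR replicate 1 the calls rose from 9 to 16 histone genes, 12 of them clustered genes that were lower, and the share of all genes called lower rose to 10.4%. The call of H1f3 did not survive leaving out AICAR replicate 2 (adjusted p = 0.062), nor that of H2bc18 leaving out control replicate 2 (adjusted p = 0.054), and H2ac15 kept its call in 1 of 6 such fits, that without AICAR replicate 1.

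The variants did not move together. Of the 13, 1 was called higher and 0 lower when AICAR was added to forskolin, where 0.978% of all genes were higher and 4.12% lower. Against control 0 were higher and 1 lower, where 3.04% and 5.68% of all genes were. Their differences from forskolin lay between −0.22 and 0.24, with 5 of 13 below 0. The 8 variants outside the germ-cell genes and Macroh2a3 had a median of −0.06, and 5 of the 8 were below 0. No test compared the variants with the clustered genes as classes.

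H2az2 (H2afv) was the variant called higher. Its values with AICAR were 11.37, 11.35 and 11.37, above the forskolin values of 11.14, 11.19 and 11.22 and also above the control values of 11.33, 11.32 and 11.29. The difference from forskolin was 0.18 (SE 0.04, 1.13-fold, adjusted p = 0.023), and the call was kept in 2 of 6 fits with an array left out (adjusted p up to 0.080). It was lost without forskolin replicates 1 or 2 or AICAR replicates 2 or 3. H2az1 (H2afz), the main H2A.Z gene, had 2 probe sets, and the brighter read 12.50, 12.49 and 12.58 with forskolin and 12.48, 12.42 and 12.38 with AICAR. Its groups stood apart by 0.01, and neither probe set passed (−0.10 and −0.07).

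H2ax (H2afx), the variant phosphorylated at DNA breaks, is known to make both a stem-loop and a polyadenylated mRNA. It read 9.62, 9.76 and 9.69 in control cells, 9.64, 9.69 and 9.64 with forskolin, and 9.43, 9.55 and 9.35 with AICAR. The AICAR arrays lay below both groups, at −0.25 from control (SE 0.06, adjusted p = 0.028) and −0.22 from forskolin (SE 0.06, adjusted p = 0.059), so it passed in 1 of these comparisons. Its call against control was lost without control replicate 2, control replicate 3 or AICAR replicate 3 (adjusted p up to 0.092), and also without forskolin replicate 1.

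H1f10 (H1fx), a solitary linker histone gene, read 7.13, 7.17 and 7.14 in control cells, 7.26, 7.26 and 7.10 with forskolin, and 7.26, 7.47 and 7.62 with AICAR. Forskolin and AICAR arrays met at 7.26. The gene was at 0.24 from forskolin (SE 0.08, adjusted p = 0.13) and 0.30 from control (SE 0.08, adjusted p = 0.055), passing in neither, and it passed in both without AICAR replicate 1. H2aj (H2afj) differed from forskolin by −0.09 (SE 0.04, adjusted p = 0.19), with 8.12, 8.12 and 8.19 against 8.01, 8.08 and 8.06 with AICAR, which did not overlap.

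The macroH2A genes did not pass in any comparison. Macroh2a1 (H2afy) stayed between 10.24 and 10.31 on all 9 arrays, with an AICAR difference of −0.02 (SE 0.03) from forskolin. Macroh2a2 read 6.04, 5.95 and 5.78 with AICAR, overlapping both other groups, at −0.10 from forskolin (SE 0.08, adjusted p = 0.42). The probe set that names H3f3a, a gene for the replacement histone H3.3, alone read between 6.50 and 6.59 on all arrays and differed by 0.01 (SE 0.04). This set lay below the median over all probe sets of every array, and brighter shared sets that name H3f3a are described below.

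**Figure D4:**
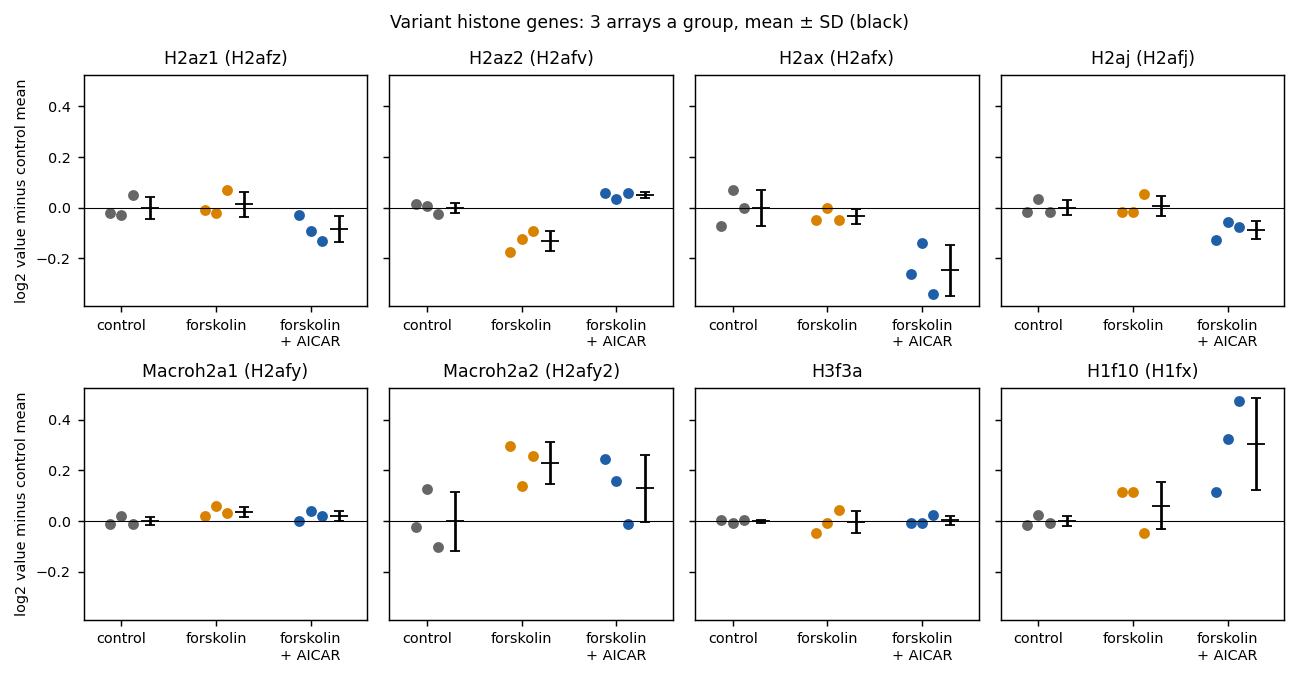
Log2 value minus the gene's control mean on each array for 8 variant histone genes, with the mean ± SD of each group of 3 in black, on a common axis. H2az2 dips with forskolin (−0.13) and stands above it with AICAR, H2ax is lowest with AICAR (−0.25 from control), H1f10 spreads upward with AICAR, and Macroh2a1 and H3f3a stay near 0. H3f3a is drawn from the dim probe set that names it alone.

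The 7 germ-cell genes among the members had a median AICAR difference of 0.04 from forskolin, and none passed. They ranged from −0.18 for H2bc1 (Hist1h2ba), a testis H2B, to 0.21 for H2al2a (older symbol H2afb1), an H2A of spermatids, whose AICAR values of 7.44, 7.52 and 7.62 lay above 7.39, 7.27 and 7.29 with forskolin (SE 0.06, adjusted p = 0.066). The older symbol H2afb1 is listed for both H2al2a and H2ab1.

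Most clustered histone genes are so alike that a probe set cannot tell them apart. The arrays held 33 such shared histone probe sets, 31 of them with distinct values, and each named from 2 to 20 genes. They were tested in a fit on all 35557 probe sets that was added after the data were seen. With AICAR added to forskolin 30 of 33 differences were below 0, and 28 of 33 had all AICAR arrays below all forskolin arrays. In this comparison 2 were called, both lower, where 3.52% of all probe sets were called in either direction. Against control 2 were also called lower (5.03% of all probe sets in either direction), and with forskolin alone 0 (0.340%). The shares of all probe sets that were below 0, apart or called lower were not computed. Among the 19938 genes, which leave out these shared sets, 8131 differences were below 0 when AICAR was added to forskolin. Every AICAR array lay below every forskolin array in 12.2% of those genes. These probe sets repeat the same gene families and share cross-hybridizing sequence, so they are not separate measurements.

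The 10 shared H3 probe sets, each naming 12 genes, differed by −0.14 to −0.12 and were all apart from forskolin. The one that passed read 13.79, 13.77 and 13.77 in control cells, 13.80, 13.79 and 13.78 with forskolin, and 13.64, 13.65 and 13.65 with AICAR (−0.14, SE 0.03, adjusted p = 0.040). Its 3 AICAR arrays lay within 0.01 of each other. The H3c15 difference of −1.66 was not seen in the probe sets that read the H3 genes jointly. The 7 shared H2B probe sets differed by −0.18 to −0.12, the 6 shared H4 probe sets by −0.19 to −0.05, and the 2 shared H2A probe sets by −0.10 and −0.19, the latter passing (adjusted p = 0.047). Against control the H3, H2B and H2A probe sets differed by −0.13 to −0.09, −0.16 to −0.09 and −0.19 to −0.12, and with forskolin alone all 33 lay within −0.04 and 0.06.

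The H3.3 genes were also read by shared probe sets, each naming the gene and a related locus. The 4 that name H3f3a with Gm12657 had means of 11.51 to 11.95 and differed by −0.01 to 0.04 when AICAR was added. Both that name H3f3b with Gm6485 differed by −0.17 (adjusted p = 0.086 and 0.18), and 1 of them read 12.53 on all 3 forskolin arrays and 12.42, 12.39 and 12.28 with AICAR. Both H3f3b probe sets were apart from forskolin, and none of the 4 H3f3a sets was lower on all AICAR arrays. In 1 of the 4 H3f3a sets all AICAR values (11.88, 11.82 and 11.82) lay above all forskolin values (11.80, 11.78 and 11.81). No probe set of either gene passed.

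**Figure D5:**
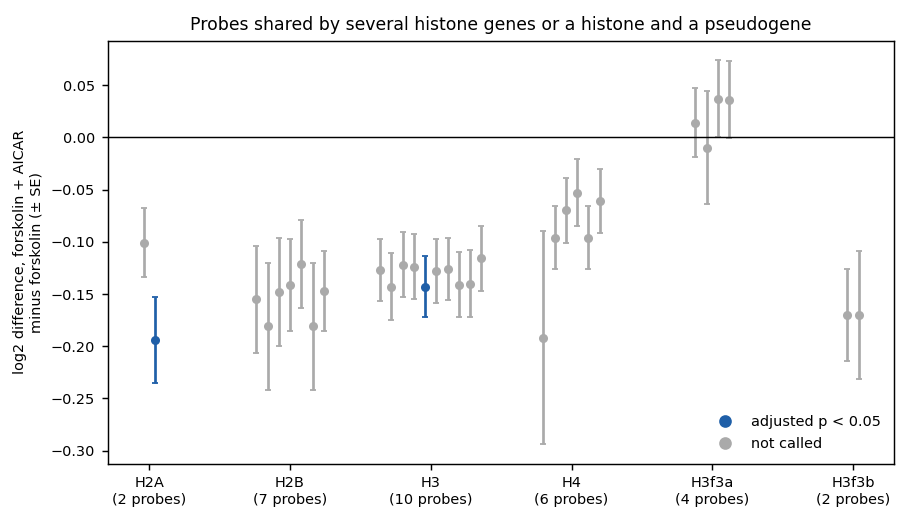
Log2 difference, forskolin with AICAR minus forskolin, of 31 probe sets shared by several genes, by histone type, with bars of ± 1 SE from limma on all probe sets; the 2 sets that mix a histone with another kind of gene or type are not drawn. The H2A, H2B, H3 and H4 sets all lie below 0, the 10 H3 sets between −0.14 and −0.12, and the 4 H3f3a sets lie around 0.

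Of 24 measured genes for histone gene transcription and mRNA 3′ processing, 0 passed when AICAR was added to forskolin, against a background of 5.10% in either direction. An unadjusted p under 0.05 was found for 2 of the 24, against 4801 of the 19938 genes. Against control, where 8.72% of all genes passed in either direction, 1 passed, Mblac1, the nuclease reported to cut histone pre-mRNA (−0.29, SE 0.07, adjusted p = 0.030), with 7.45, 7.64 and 7.43 on the AICAR arrays and 7.70, 7.81 and 7.88 on the control arrays. Of 26 chaperone and deposition genes, 1 passed when AICAR was added to forskolin and 2 against control, where 5.10% and 8.72% of all genes passed. An unadjusted p under 0.05 was found for 7 and 9 of them, against 4801 and 6199 of the 19938 genes. Differences below 0 numbered 16 and 21, against 8131 and 8270 over all genes. Srcap, the remodeller that installs H2A.Z, was lower in both AICAR comparisons (−0.21 from forskolin, adjusted p = 0.030, and −0.28 from control). Chaf1a, the large subunit of the replication-coupled chaperone CAF-1, was lower against control (−0.19, adjusted p = 0.026). Forskolin alone gave 0 calls in either list, where 0.692% of all genes passed. Differences below 0 with forskolin alone also numbered 21 of the 26 chaperone and deposition genes, against 9491 of the 19938 genes. An unadjusted p under 0.05 was found there for 3 of the 26, against 1450 of all genes.

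Of 32 measured genes of DNA replication and S phase, 4 fell and 0 rose when AICAR was added to forskolin, with a list median of −0.05, where 4.12% of all genes were called lower. Orc1, the large subunit of the origin recognition complex, read 7.70, 7.75 and 7.92 with forskolin and 7.29, 7.16 and 7.06 with AICAR (−0.62, SE 0.07, adjusted p = 0.0016), with no overlap. The other 3 were the replication factor Mcm10 (−0.25), the polymerase subunit Pole (−0.20) and the thymidine kinase Tk1 (−0.17). Against control, where 5.68% of all genes were called lower, 10 of 32 fell and 0 rose, among them Orc1 (−0.47), the origin licensing factor Cdc6 (−0.28), the activator E2f2 (−0.27) and Mcm10 (−0.26). With forskolin alone 0 of 32 passed, where 0.692% of all genes did, and 4 had an unadjusted p under 0.05, against 1450 of the 19938 genes. With forskolin alone 27 of the 32 differences were already below 0, with a median of −0.03, against 9491 of all genes. They numbered 21 when AICAR was added to forskolin and 26 against control, against 8131 and 8270 of all genes. The differences from control thus include those already present with forskolin alone. Whether the change in these genes goes with the change in the clustered histone genes was not tested.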

How the data were processed

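The authors deposited log2 values of 35557 probe sets on 9 arrays, made with RMA in Partek per the submitters' processing notes. No version, setting, array batch or genome build is given in the sources used here. RMA usually subtracts background, makes the arrays share 1 distribution and summarises by median polish. The deposited arrays did not share 1 distribution exactly. Their interquartile range was 3.35 and 3.34 on AICAR replicates 2 and 3, and 3.42 to 3.48 on the others. Quantile normalization forces 1 distribution. After it 9 clustered genes were called lower when AICAR was added to forskolin, as were 3.2% of all genes. Exactly equal values on at least 2 arrays occurred in 60.8% of genes (45.5% of the histone genes), which affects the spread. Probe sets with several symbols (1621) or none (12147) were left out of the gene table, and the set with the highest mean was kept per gene, leaving 19938 genes.

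Symbols were matched to older ones through Entrez identifiers in RefSeq. All 9 arrays entered 1 model in limma 3.58.1 (R 4.3.3) with 3 two-sided contrasts and Benjamini-Hochberg adjustment over all genes; the script was tested on simulated data. Genes were named if called (the 8 largest clustered differences and every variant per comparison), brightest of a type, or among the ubiquitous variants, H1f0 having no probe set. Up to 4 called genes per pathway list were named. Members and lists were chosen with earlier results of these data known. No dim probe set was removed. The number of arrays limits the precision. Alternatives covered normalization, filters, array weights, prior, replicate block, thresholds and arrays left out. Figures were drawn with matplotlib 3.10.9.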

Additional observations from a re-analysis of the deposited data

How the results depend on the processing

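No difference of a single member changed sign where it had been called, and 2378 member values under other settings kept their side of the threshold, while 52 passed that had not and 66 no longer passed. The count of histone genes called when AICAR was added to forskolin, 10, became 6 with the 2 groups alone, 20 with array weights, 3 with replicate 3 of every group left out, 17 at an adjusted p under 0.1 and 5 under 0.01, and ranged from 5 to 18 with 1 array left out. Over all genes the share called lower, 4.12%, became 2.24% with the 2 groups alone, 13.3% with array weights and 1.11% with replicate 3 left out. Against control the 9 calls became 17 with array weights, 4 with replicate 3 of every group left out, 15 and 5 at those thresholds, and 6 to 16 with 1 array left out, with 15.3% of all genes lower under array weights and 1.60% with replicate 3 left out. With array weights forskolin against control gave 1 call. The clustered median of -0.19 became -0.10 with replicate 3 of every group left out and -0.23 to -0.12 with 1 array left out. The variant median of 0.04 became 0.06 with each array centred on its median, 0.00 with replicate 3 left out and 0.01 to 0.05 with 1 array left out, and that of forskolin against control, 0.01, became -0.02 after centring and -0.02 to 0.02 with 1 array left out. The cause of these shifts was not tested.

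Replicate numbers showed no steady pairing of the arrays. The correlation of deviations for equal numbers ran from -0.406 to 0.329, and not every array correlated best with its own number. Control and forskolin arrays of equal number were at 0.244, 0.013 and 0.329, and the negative values for equal numbers all involved AICAR arrays. Deviations in a group of 3 sum to 0, which limits what this check can show. With the replicate number as a block, 6 histone genes were called when AICAR was added to forskolin, 8 against control and 0 for forskolin alone. The block cannot change a difference or a median in this balanced design, so those say nothing about stability.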

Other observations

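Histone genes outside the naming rule showed no call in any of the 3 comparisons in limma. Cenpa, the H3 variant of centromeres, read 10.44, 10.49 and 10.52 in control cells, 10.33, 10.39 and 10.42 with forskolin, and 10.46, 10.45 and 10.50 with AICAR added. Its forskolin arrays lay below both other groups, with differences of -0.11 for forskolin minus control (SE 0.04, adjusted p = 0.55) and 0.09 for AICAR with forskolin minus forskolin (SE 0.04, adjusted p = 0.20). Hils1, a linker histone of spermatids, read 6.96, 7.02 and 7.20 with AICAR and 6.86, 6.91 and 6.77 in control cells, which did not overlap (0.22, SE 0.06, adjusted p = 0.068). H2bfm, an H2B gene, differed by 0.02 when AICAR was added to forskolin (adjusted p = 0.76).

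Neighbours within the clusters did not share 1 difference. In the order of the RefSeq table H1f3, at -0.44 when AICAR was added, lies next to H4c6 at -0.33, and H4c6 lies next to H3c7 at -0.01. H3c15, at -1.66, lies next to H2bc21 (Hist2h2be) at -0.18, and H4c4, at -0.05, lies next to H3c4 at -0.26.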
